A study of Caenorhabditis elegans with 2 samples.

Results

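The genes for the proteins of the cytosolic ribosome were examined for binding of Y22D7AL.16, a protein that RefSeq describes as having a domain of the C2H2 zinc finger type, in embryos of Caenorhabditis elegans. Genes were taken by name from the Ensembl gene models of WBcel235, the sequence of the ce11 build: every protein-coding gene whose symbol starts with rpl- or rps-, together with rla-0, rla-1, rla-2 and ubl-1. This gave 82 of 19985 protein-coding genes and left out the genes of the mitochondrial ribosome. By symbol alone, 50 were counted with the large and 32 with the small subunit. All 82 were matched to RefSeq, whose product names a ribosomal protein for 77 of them. Of the other 5, rps-30 and ubl-1 encode fusions with a ubiquitin-like protein, rps-10 and rpl-42 are named after a domain, and rpl-24.2 is described as a putative ribosome biogenesis protein.

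The embryos were of strain OP615, genotype unc-119(tm4063) III with wgIs615, an insertion from which Y22D7AL.16 is made with GFP and FLAG fused to its C-terminal end; what promoter drives it is not stated in the sources used. They were late embryos of mixed sex, at 4.5 h from synchronization (by egg bleaching). Chromatin from 2 biological replicates, which form 1 group, was enriched by anti-GFP immunoprecipitation. The question was therefore where the tagged protein lay at this stage, and no condition was set against another.

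Ribosomes are assembled from ribosomal RNA and a fixed set of proteins, so growing cells transcribe the ribosomal protein genes at high and matched rates. In worms many messenger RNAs of such housekeeping genes are trans-spliced, which replaces the first transcribed stretch by a short leader, so the annotated 5′ end is often a splice site with the start of transcription further upstream. Several ribosomal protein genes also carry snoRNA genes in their introns. The snoRNAs guide the modification of ribosomal RNA.

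Peaks were used as the authors called them. The list of 28882 peaks called on both replicates pooled and the lists of 30000 peaks for each replicate are relaxed and hold background, so a rank says more than presence. The authors' list of peaks that passed their reproducibility threshold, called thresholded peaks here, held 469 peaks, which were the 469 pooled peaks of highest signal. Each peak has a signal value from the authors, comparable only within its list, where rank 1 is the highest. Read numbers are not given, so depth is unknown. A precipitation from untagged worms was not analysed here and transcription of these genes was not measured, so any share of the signal unrelated to the tagged protein was not tested.

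A thresholded summit lay within 1000 bp of the 5′ end of 14 of the 82 ribosomal protein genes (17.1%, exact 95% Clopper-Pearson interval 9.66 to 27.0, counting error only). The share over all protein-coding genes by the same rule was 1.77% (353 of 19985). By symbol, 7 of the 14 were counted with the large subunit (of 50) and 7 with the small subunit (of 32). The large subunit count includes rpl-24.2, whose product is described as a putative biogenesis protein. Each of the 14 had a different peak, and none had more than 1 thresholded summit in its window. Among the other 68 genes the nearest thresholded summit lay 3565 bp from the 5′ end, at rpl-16. Because the gene set was chosen with earlier results of these data known, no test of the set was made.

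The 14 genes lie on 4 chromosomes, in coordinates of ce11. On chromosome I lie rps-20 (14468332 to 14469103, minus strand, summit 14469334), rpl-27 (1834883 to 1835438, plus strand, summit 1835645), rps-26 (14759930 to 14760626, plus strand, summit 14759555), rps-19 (9625049 to 9625796, minus strand, summit 9626061) and rpl-24.2 (9669415 to 9670098, plus strand, summit 9669282). On chromosome II lies rpl-5 (8569927 to 8571100, plus strand, summit 8569480). On chromosome III lie rpl-3 (3867854 to 3869587, plus strand, summit 3867587), rps-1 (4475918 to 4476876, plus strand, summit 4475660) and rpl-35 (7855134 to 7855646, plus strand, summit 7854689). On chromosome IV lie rpl-15 (653480 to 654576, minus strand, summit 654931), rps-28 (1659691 to 1659997, plus strand, summit 1659233), rps-23 (12390298 to 12391053, minus strand, summit 12391331), rps-4 (7083696 to 7084682, minus strand, summit 7084939) and rpl-20 (4749123 to 4749778, minus strand, summit 4750102). The summits fell in the stretch before the gene except at rpl-27, as described with the positions of the summits.

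The strongest peak belonged to rpl-3, whose product lies close to the catalytic centre of the large subunit. Its pooled signal was 310, at rank 17, and it had signal 179 in replicate 1 (rank 17) and 131 in replicate 2 (rank 20). Its peak was 177 bp wide, whereas the other 13 thresholded peaks were 380 bp wide. It was followed by rpl-15, another large subunit gene, with pooled signal 186 at rank 88, signal 96.7 in replicate 1 (rank 111) and 84.1 in replicate 2 (rank 81). The small subunit gene rps-28 came next, with pooled signal 165 at rank 120, signal 95.1 in replicate 1 (rank 120) and 60.8 in replicate 2 (rank 162). These 3 genes stood within the first 162 peaks of both replicates, so both gave them a similar place.

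Bases around these summits are printed here because several share a short run of letters, described further on. Each line is 101 bases of ce11 from the RefSeq sequence of WBcel235, centred on the pooled summit and read 5′ to 3′ on the strand of the gene, for 6 of the 14 genes. The capitals mark TACGGT. The positions are chrIII:3867537-3867637 for rpl-3 (plus strand), chrIV:654881-654981 for rpl-15 (minus), chrIV:1659183-1659283 for rps-28 (plus), chrIII:4475610-4475710 for rps-1 (plus), chrIV:12391281-12391381 for rps-23 (minus) and chrIV:7084889-7084989 for rps-4 (minus). None of the 6 windows overlapped an exon of a protein-coding gene.
rpl-3: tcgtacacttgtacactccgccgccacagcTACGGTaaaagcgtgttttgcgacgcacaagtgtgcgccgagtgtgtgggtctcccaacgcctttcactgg
rpl-15: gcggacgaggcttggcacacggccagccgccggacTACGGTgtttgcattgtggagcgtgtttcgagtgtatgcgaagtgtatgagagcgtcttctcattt
rps-28: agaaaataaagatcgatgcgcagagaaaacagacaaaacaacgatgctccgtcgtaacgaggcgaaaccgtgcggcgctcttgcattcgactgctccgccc
rps-1: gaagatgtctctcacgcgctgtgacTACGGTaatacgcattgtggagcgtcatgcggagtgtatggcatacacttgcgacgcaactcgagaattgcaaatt
rps-23: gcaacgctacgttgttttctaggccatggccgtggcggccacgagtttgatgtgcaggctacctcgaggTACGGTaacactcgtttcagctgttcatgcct
rps-4: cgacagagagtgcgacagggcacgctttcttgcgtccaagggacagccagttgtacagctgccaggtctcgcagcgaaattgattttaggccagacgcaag

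The remaining small subunit genes with a thresholded peak were rps-20, rps-1, rps-23, rps-26, rps-4 and rps-19. For rps-20 on chromosome I the pooled signal was 146, with 73.9 in replicate 1 (rank 201) and 74.4 in replicate 2 (rank 104). For rps-1 the pooled signal was 131, with 62.4 in replicate 1 (rank 284) and 58.8 in replicate 2 (rank 178). The product of rps-23 sits at the decoding centre, where codon and anticodon are matched, and its gene had pooled signal 129, with 70.9 in replicate 1 and 53.6 in replicate 2, at rank 217 in each. The gene rps-26 had pooled signal 118, with 55.9 in replicate 1 (rank 353) and 65.2 in replicate 2 (rank 139). For rps-4 the pooled signal was 113, with 63.6 in replicate 1 (rank 265) and 47.6 in replicate 2 (rank 279). The human counterpart of rps-19 is known for its mutation in Diamond-Blackfan anaemia. At rps-19 the replicates gave the most different places of the 14, with 73.6 in replicate 1 (rank 202) against 31.0 in replicate 2 (rank 1279) and a pooled signal of 102.

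The genes counted by symbol with the large subunit, other than rpl-3 and rpl-15, were rpl-27, rpl-35, rpl-20, rpl-5 and rpl-24.2. The gene rpl-27 had pooled signal 134, with 72.2 in replicate 1 (rank 210) and 60.4 in replicate 2 (rank 166). The product of rpl-35 lies near the exit of the tunnel for the growing protein chain, and its gene had pooled signal 105, with 60.6 in replicate 1 (rank 299) and 52.6 in replicate 2 (rank 229). For rpl-20 the pooled signal was 105, with 51.8 in replicate 1 (rank 435) and 51.5 in replicate 2 (rank 241). These 3 genes ranked within the first 469 peaks of both replicates. The product of rpl-5 binds the smallest ribosomal RNA of the large subunit, and its gene had pooled signal 95.6, with 54.8 in replicate 1 (rank 375) and 36.0 in replicate 2 (rank 675). The lowest of the 14 was rpl-24.2, the gene described as a biogenesis factor, with pooled signal 94.7, 55.3 in replicate 1 (rank 364) and 37.9 in replicate 2 (rank 546).

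**Figure D1:**
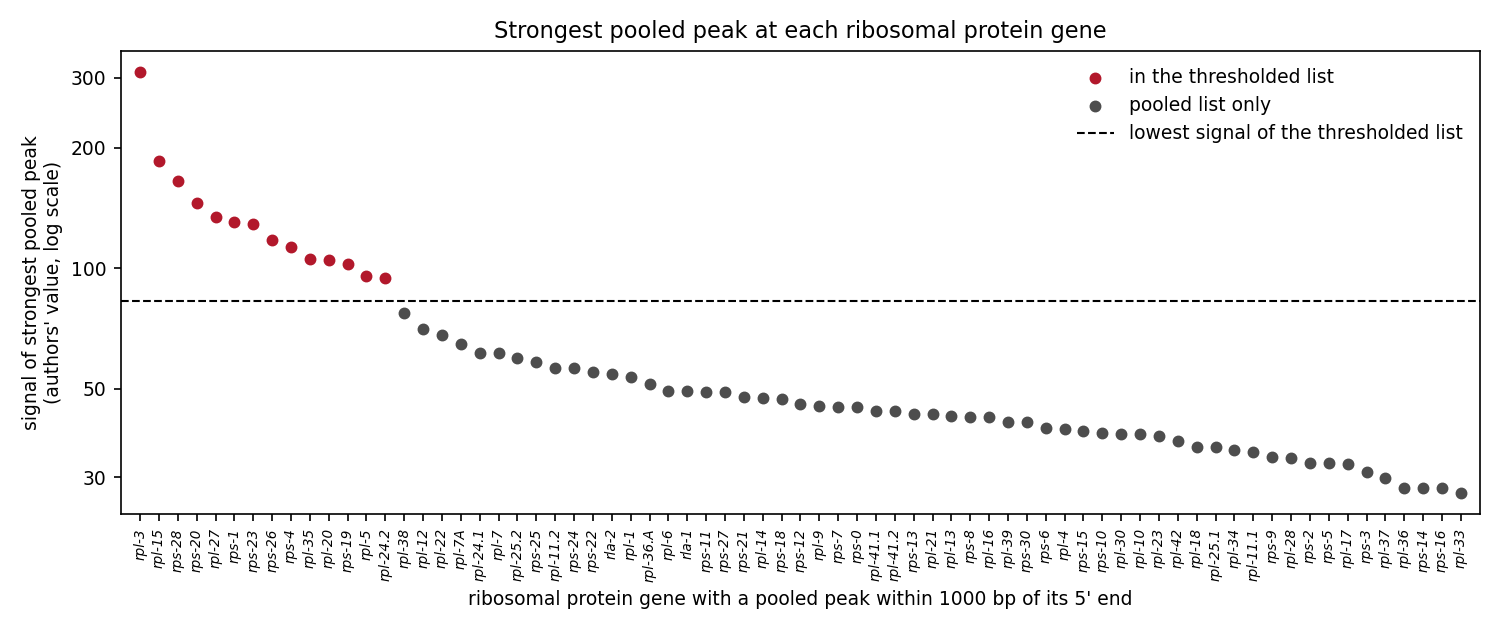
Signal of the strongest pooled peak (vertical axis, the authors' value on a log scale) at each of the 71 ribosomal protein genes with a pooled summit within 1000 bp of the 5′ end, in falling order. The 14 genes in the thresholded list run from 310 at rpl-3 to 94.7 at rpl-24.2, and the dashed line is the lowest thresholded signal, 82.9.

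The first 469 peaks of each replicate alone added no gene to the 14. All 14 had a peak among the first 469 of replicate 1 and 11 had one among the first 469 of replicate 2, and no other ribosomal protein gene had one in either list. Such a peak in both replicates was found at 11 of 82 ribosomal protein genes (13.4%, exact interval 6.89 to 22.7), and over all protein-coding genes 1.64% had one in replicate 1, 1.66% in replicate 2 and 1.13% in both. The 3 genes missing from replicate 2 were rps-19, rpl-5 and rpl-24.2. At each of the 14 genes the strongest peak of each replicate overlapped the pooled peak, and its summit lay at most 54 bp (replicate 1, median 14) or 57 bp (replicate 2, median 11.5) from the pooled summit. Pooled signal comes from the same replicates, so these counts describe how the lists relate and are not separate evidence.

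**Figure D2:**
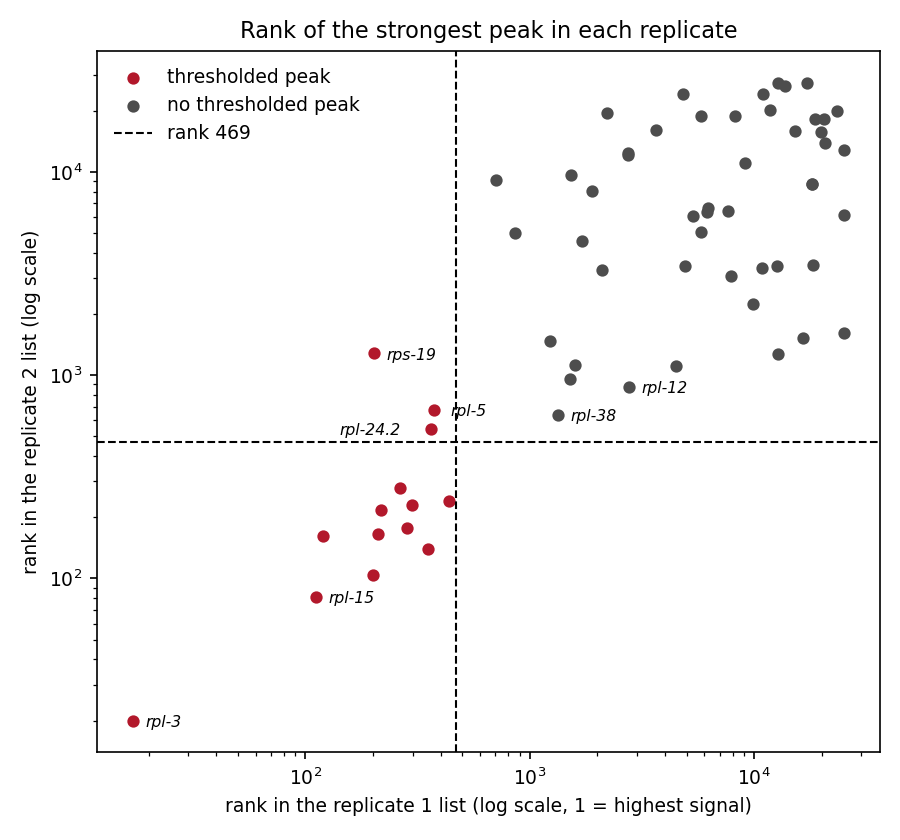
Rank of the strongest peak within 1000 bp of the 5′ end in the replicate 1 list (horizontal) and the replicate 2 list (vertical), both on log scales, for ribosomal protein genes with a peak in both lists. Of the 14 genes with a thresholded peak (red), 11 lie within rank 469 (dashed lines) in both replicates, and rps-19, rpl-5 and rpl-24.2 lie above it in replicate 2.

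The first gene below the threshold was rpl-38, with pooled signal 77.3 at rank 562, signal 39.0 in replicate 1 (rank 1338) and 36.5 in replicate 2 (rank 637), where the lowest thresholded signal was 82.9. It was followed by rpl-12, whose product lies at the base of the stalk that recruits translation factors, with pooled signal 70.4 at rank 785 (rank 2752 in replicate 1 and 876 in replicate 2), and by rpl-22 with 68.2 at rank 885 (1503 and 963). The peak at rpl-12 also lay near the 5′ end of lin-54, and that at rpl-22 near that of ify-1. In all, 27 of 82 ribosomal protein genes (32.9%, exact interval 22.9 to 44.2) had a peak among the 2888 of highest signal in the pooled list, where 7.49% of all protein-coding genes had one. Some pooled peak lay near 71 of the 82 (86.6%), against 47.8% of all genes. A replicate 1 peak lay near 71 (48.1% of all genes) and a replicate 2 peak near 72 (48.9%), and 59 had a peak in all 3 full lists (72.0%, against 29.2%). In the pooled list the median rank of the strongest peak was 5620 at ribosomal protein genes (quartiles 1259 and 11110.5) and 11966 over all 9556 genes with a peak. The lowest pooled signals were 28.2 at the peak that rpl-36 and rps-14 share, 28.1 at rps-16 and 27.4 at rpl-33.

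The other 11 genes had no pooled summit in the window: rla-0, which encodes the core of the stalk, rpl-2, rpl-19, rpl-26, rpl-29, rpl-31, rpl-32, rpl-43, rps-17, rps-29 and ubl-1. Only rpl-32 and ubl-1 had none in any of the 3 full lists, which was the case for 33.0% of all protein-coding genes. Of the 57 genes with a pooled but no thresholded peak, 31 had an overlapping strongest peak in both replicates. That share was not counted over all genes. Pooled peaks come from the same replicates, so the overlap is not separate evidence. The stalk genes rla-1 (rank 4021) and rla-2 (rank 2494) had their strongest pooled peak inside the gene, at positions 238 and 465 from the 5′ end. The summit at rla-2 was nearer the 5′ end of agt-1 (at -408), and 3 other 5′ ends lay within 1000 bp of it. Both stalk genes were picked for their role in the stalk, after their values were seen.

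Thresholded summits at ribosomal protein genes lay mostly 200 to 500 bp upstream of the annotated 5′ end. Of the 14 thresholded peaks 13 were upstream (92.9%, exact interval 66.1 to 99.8). That interval takes in the share over all 353 genes with a thresholded peak, 83.0%. At 200 to 500 bp upstream lay 12 of the 14 (85.7%, and 31.4% over all 353 genes). This range was not planned and holds most of the summits it describes. Its shares, here and for pooled peaks below, are therefore a description with no test. The median position of the 14 was -272.5, with quartiles of -370 and -257. Positions were -267 at rpl-3, -355 at rpl-15, -458 at rps-28, -231 at rps-20, -258 at rps-1, -278 at rps-23 and -375 at rps-26. They were -257 at rps-4, -445 at rpl-35, -324 at rpl-20, -265 at rps-19, -447 at rpl-5 and -133 at rpl-24.2. At rpl-27 the summit was downstream at 762, past the end of the gene, which is on the plus strand from 1834883 to 1835438 of chromosome I. Over all 71 ribosomal protein genes with a pooled peak, 53 were upstream (74.6%, and 53.6% over all genes with a pooled peak) and 37 were 200 to 500 bp upstream (52.1%, and 17.5% over all such genes).

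**Figure D3:**
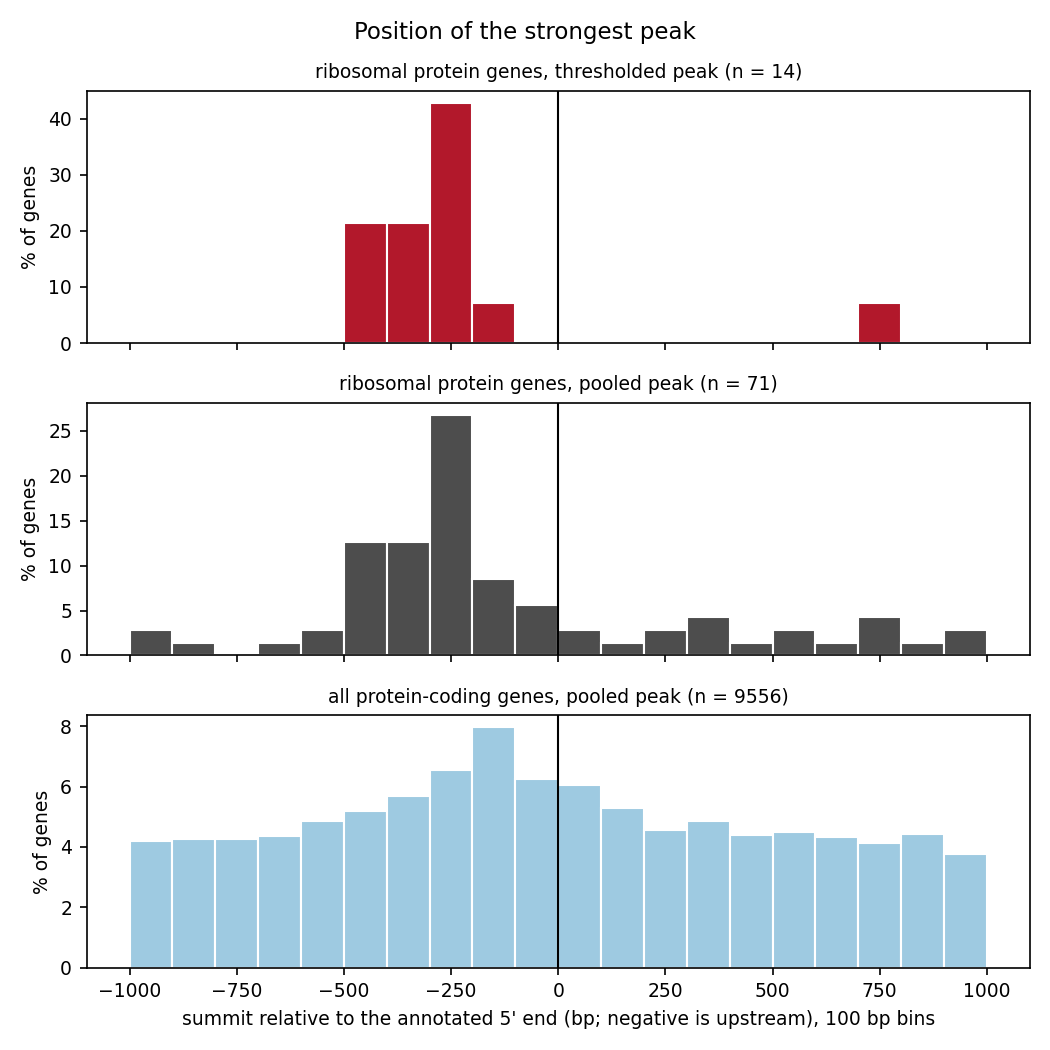
Summit of the strongest peak relative to the annotated 5′ end (horizontal, bp, negative is upstream) as a percentage of genes per 100 bp, for ribosomal protein genes with a thresholded peak (top, 14 genes), ribosomal protein genes with a pooled peak (middle, 71) and all protein-coding genes with a pooled peak (bottom, 9556). The vertical scales differ; the upper panels are highest from 300 to 200 bp upstream, and 12 of the 14 thresholded summits lie 200 to 500 bp upstream.

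The letters directly before the annotated 5′ end bear on what that end is. A splice acceptor ends in AG, and AG stood directly before the 5′ end of all 14 genes with a thresholded peak and of 69 of the 82 ribosomal protein genes (84.1%), against 27.6% of all nuclear protein-coding genes. The longer run TTTCAG, the usual worm acceptor, stood there at 9 of the 14 and 40 of the 82 genes (48.8%), against 12.3% of all. These letters alone do not show that an end is a splice acceptor, no data on trans-splicing were used, and the start of transcription was not located here.

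Most of the thresholded peaks lay between genes. Of the 14 summits, 13 were outside every protein-coding gene and 1, at rpl-24.2, was in an intron of C03D6.1. At 8 the summit lay between the 5′ ends of the ribosomal protein gene and a gene on the opposite strand pointing away from it. At 10 of the 14 another protein-coding gene also had its 5′ end within 1000 bp of the summit, and at 7 that end was the nearer one, so position alone does not say to which gene the peak belongs. These 7 were rps-20 (ekl-4 at position -166), rps-23 (dpm-3 at -256), rps-26 (tmem-107 at -82), rpl-20 (Y17G9B.5 at -138), rps-19 (hsr-9 at -180), rpl-5 (the collagen gene col-38 at -392) and rpl-27 (egl-30, for a G protein alpha subunit, at -16). When each summit was given to its nearest 5′ end alone, 7 of 82 ribosomal protein genes kept a thresholded peak (8.54%, exact interval 3.50 to 16.8), where 1.27% of all genes had one. The other genes with a divergent neighbour were rpl-15 (K11H12.8 at -459) and rps-1 (ifet-1, for a translational repressor, at -510), and rps-28 had Y41D4B.4 on its own strand at -877. At rpl-24.2, rpl-35, rps-4 and rpl-3 the window held no further 5′ end. How often summits lie between genes, between divergent 5′ ends or near another 5′ end was not counted over all genes with thresholded peaks. Whether these placements are particular to ribosomal protein genes was therefore not tested.

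Small RNA genes, at which many thresholded peaks of this experiment lay, were near few of these summits. Within 200 bp of the summit a tRNA, snoRNA, snRNA or rRNA gene was found at 1 of the 14 thresholded peaks (7.14%, exact interval 0.181 to 33.9). Of all 353 genes with a thresholded peak 25.5% had one, a share inside that interval, so a lower share here was not shown. The gene found was the snoRNA gene F39B2.14, 143 bp from the summit at rps-26. Among all 71 pooled peaks there was 1 more, at rpl-4, 105 bp from the snoRNA gene B0041.9 (2 of 71 in all, against 2.00% of all genes with a pooled peak). Inside the ribosomal protein genes lay 21 snoRNA genes, in 14 host genes that include rpl-15, rps-23 and rps-4. None of the 21 had a thresholded summit within 200 bp. The same counts over all snoRNA genes and all host genes were not made. Whether peaks are rarer at these 21 was therefore not shown.

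A run of 6 bases, TACGGT, recurred near the thresholded summits. Each of the 2080 6-mers (a 6-mer and its reverse complement counted together) was counted in the windows of 100 bp either side of the 14 summits. Among 6-mers present in fewer than 10% of windows of pooled peaks outside the thresholded list, TACGGT was in the most, 9 of 14 (64.3%). It was chosen for that count, which is therefore a description with no test. It was in 3.08% of the other 455 thresholded windows, in 4.62% of the 238 of those more than 200 bp from a small RNA gene, and in 6.24% of the 28413 pooled windows outside the thresholded list. The next was CAACGC, with 8 of 14 windows against 8.57% of the other thresholded windows and 4.86% of the pooled ones.

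The matches lay close to the summit. Counted from the summit to the first base of the match on the gene's strand, TACGGT stood at -20 in rpl-3, -15 in rpl-15, 9 in rps-20, -9 in rpl-27, -25 in rps-1, 19 in rps-23 and 21 in rpl-20. Its reverse complement stood at -11 in rpl-5 and at 94 in rpl-24.2. So 8 of the 9 matches began within 25 bp of the summit and 7 of 9 read on the strand of the ribosomal protein gene. No match was found in the windows of rps-28, rps-26, rps-4, rpl-35 and rps-19.

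The run was chosen by its count at the 14 summits, and the 68 ribosomal protein genes with no thresholded peak were looked at afterwards. Their strongest pooled peaks were, however, among the 28413 pooled windows used for the limit of 10%. Of these 54 peaks, 14 had TACGGT within 100 bp of the summit (25.9%, beside the 6.24% of pooled windows given above, which include them). In the 600 bp before the 5′ end it was present in 29 of these 68 ribosomal protein genes (42.6%), against 16.3% of 19973 nuclear protein-coding genes. It was present in 19.8% of the 339 other genes with a thresholded peak, and in 8 of the 14 ribosomal protein genes with one (57.1%). From 250 bp before to 50 bp after the 5′ end, TACGGT was in 2 of the 14 and 12 of the 68, against 8.11% of all. Whether the 14 and the 68 differ was not tested. Among the 68, the strongest pooled peak had a median rank of 5432.5 (quartiles 2017.8 and 11911) at the 24 genes with the run and a pooled peak, and of 7602 (quartiles 4941 and 14105) at the 33 without the run. These ranges overlap widely, and the difference was not tested.

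The motifs listed for a search in the promoters (250 bp before to 50 bp after the 5′ end, on either strand) were counted over all 82 genes and over all promoters. The T-rich run TTTCTTTTT was in 17 of the 82 promoters (20.7%), against 8.58% of all, in 3 of the 14 genes with a thresholded peak and 14 of the other 68. TTTCAG was in 57 (69.5%), against 51.7% of all promoters. TATAAA, the core of the TATA box, was in 22 (26.8%), against 37.9%. CCCGCC was in 5 (6.10%), against 6.48%. CTGCGTCTC was in none, against 2.93%, and GTTCGA, letters found in the internal promoter of tRNA genes, was in 6 (7.32%), against 9.85%. Within 100 bp of the summits GTTCGA was in none of the 14 windows and in 35.4% of the other 455 thresholded windows, or 9.24% of the 238 of them away from small RNA genes. The mean GC content of the 14 windows was 44.4% ± 6.02 (SD, 14 windows), that of the other thresholded windows 45.7% ± 6.46 and that of the pooled windows outside the list 40.1% ± 7.14.

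Other genes of the translation machinery, on 4 lists, had a thresholded peak in smaller shares. Thresholded peaks were found at 2 of 70 mitochondrial ribosomal protein genes (2.86%, exact interval 0.348 to 9.94), mrps-28 (signal 310) and mrpl-23 (125), with the summits at positions -999 and -993, both within 200 bp of a small RNA gene. They were found at 2 of 42 translation factor genes (4.76%, 0.582 to 16.2), eif-3.C (176) and erfa-3 (119). Of 31 aminoacyl-tRNA synthetase genes 1 had such a peak (3.23%, 0.0816 to 16.7), ears-2 (314). Of 30 genes for ribosome biogenesis and snoRNP proteins 3 did (10.0%, 2.11 to 26.5), among them rpac-19, for a subunit of RNA polymerase (124), and pro-1 (95.4). The interval of the ribosomal protein genes (9.66 to 27.0) overlapped that of each of these lists, and the differences between lists were not tested.

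**Figure D4:**
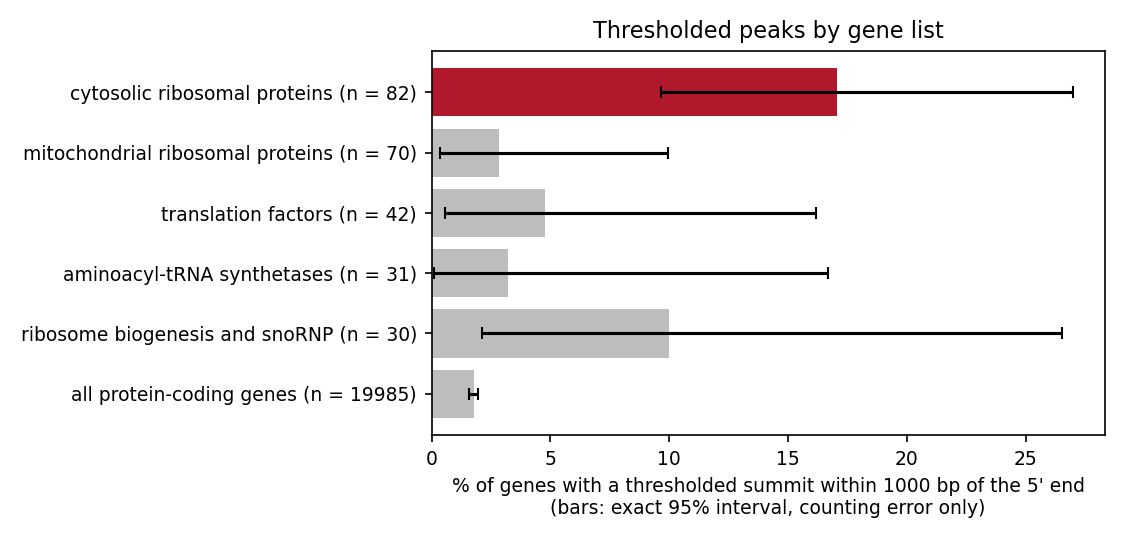
Percentage of genes with a thresholded summit within 1000 bp of the 5′ end, by list, with exact 95% intervals that cover counting error only. The cytosolic ribosomal protein genes stand at 17.1% and all protein-coding genes at 1.77%, and the intervals of the other lists overlap that of the ribosomal protein genes.

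By chromosome, the 14 genes were 5 of the 25 on I, 1 of 10 on II, 3 of 19 on III and 5 of 18 on IV, and none of the 8 on V or the 2 on X. Over all protein-coding genes the share with a thresholded peak ran from 0.941% on V to 2.99% on III. With 10 ribosomal protein genes on V and X together, a lower share there could not be detected.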

How the data were processed

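The analysis used 4 lists of peaks in ce11, from 2 replicates. Per the deposited file listings, relaxed lists of peaks and background were made for each replicate and for both pooled, against a control, and the thresholded list was derived from them by reproducibility (IDR). Signal (column 7) is the value per peak that the authors deposited. Aligner, peak caller, versions, threshold and read numbers: not given in the sources used here. Depth and its precision are therefore unknown. Lists in ce10 were not used, since coordinates were not converted.

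Peaks were placed by summit, counted from 1, against Ensembl release 115 models of WBcel235, whose chromosome lengths no peak exceeded. For each gene the strongest summit within 1000 bp of the 5′ end was kept in each list. Every gene with a summit in its window counts, so 1 peak can count for several genes. Small RNA genes were tRNA, snoRNA, snRNA and rRNA genes within 200 bp. Shares have exact 95% Clopper-Pearson intervals over genes, which are not replicates. No test was made: there is 1 group, and the genes, lists and rules were chosen with earlier results of these data known. The genes named are those with a thresholded peak, those within double the thresholded rank, the 3 weakest pooled peaks and up to 2 genes of highest signal per other list. The run TACGGT, the run CAACGC and the windows of 600 bp were chosen after the data were seen. The range of 200 to 500 bp upstream was not among the planned summaries. The assignment was tested on simulated peaks planted at known genes far from any other 5′ end. Windows shared by several genes were therefore not covered by it. Computation used Python 3.11.15, numpy 2.4.6, pandas 2.3.3, SciPy 1.17.1 and matplotlib 3.10.9.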

Additional observations from a re-analysis of the deposited data

How the results depend on the processing

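Of 47 values recomputed under other settings, 13 moved by more than 1.5 times (counts) or by more than the SD between replicates (medians). Only the median position could change sign, and it stayed negative. The 14 ribosomal protein genes with a thresholded peak became 7 when each summit was given to its nearest 5′ end alone, and 8 in the upper part of the list by signal; the 11 in both replicates became 6 with the nearest end alone and 6 with the number of top peaks halved. With 1 replicate left out the 14 ranged from 11 to 14, the 71 with a pooled peak from 71 to 72, and the median rank from 5316 to 6088.5. That median was 4759.5 within 500 bp, 3979.5 within 2000 bp, 6575 with the nearest end alone and 4941 by overlap of the peak. The median position of -241 over pooled peaks was -225 within 2000 bp, and -223 and -233 in the lists of replicates 1 and 2. The 2 genes with a pooled peak near a small RNA gene became 0 within 100 bp and 8 within 500 bp. They were 2 and 3 in the lists of replicates 1 and 2. For windows of other sizes and replicate summits, alternatives chosen after seeing the data, the 9 windows with TACGGT were 8 to 9. The cause of these changes was not tested. No paired analysis was possible because there is 1 group. The ce10 lists were not run. Unknown depth limits what the absence of a peak says.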

Other observations

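Some ribosomal protein genes share a single weak peak. The genes rpl-39 and rps-30, head to head on chromosome V, share the pooled peak of rank 8546 (signal 41.3), at positions -272 and -227. The genes rpl-41.1 and rpl-41.2 share that of rank 6575 (signal 44.0), at 861 and -241, and rpl-36 and rps-14 that of rank 26598 (signal 28.2), at -984 and 321. The 71 genes with a pooled peak therefore rest on 68 peaks.

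Of other genes with paired names, 3 pairs had separate peaks at different ranks. The gene rpl-24.2 had a thresholded peak at rank 356 and rpl-24.1 a pooled peak at rank 1401, at position 936 inside the gene. That summit was nearer the 5′ end of D1007.10 (at -222). The gene rpl-25.2 stood at rank 1603 and rpl-25.1 at rank 14105. The gene rpl-11.2 stood at rank 2096, with rank 564 in replicate 1 and no peak in the replicate 2 list, and rpl-11.1 at rank 15567, with no peak in the replicate 1 list. Beyond the windows used, rpl-3 had another thresholded summit within its body, 1507 bp downstream of the 5′ end (signal 84.1, rank 452). These genes were picked after their values were seen.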
